A study of Mus musculus with 6 samples.

Results

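MicroRNAs with late registry numbers were examined in RNA from extracellular vesicles of mouse brain. miRNA numbers were given out in order of registration, so a high number marks an entry that was added late, mostly from deep sequencing. The members are the detected entries with a miR number of 1000 or more, leaving out 6 hairpins (miR-1193, miR-1197, miR-1264, miR-1298, miR-1912 and miR-3072). They were chosen by a measured value, detection: an entry counted as detected when its base mean in the authors' deposited table of fold changes was above 0. The deposited list held 1926 entries, of which 1108 had such a number, and 250 of these 1108 (22.6%) were detected. Of the other 818 entries, 525 (64.2%) were detected, so the late-annotated entries made up 32.3% of the 775 detected. The members just inside the rule were miR-7016-3p with 2 reads in all, miR-1941-3p with 3 and miR-3074-1-3p with 2, at base means of 0.188, 0.282 and 0.364. The entries just outside were listed at 0.

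The 6 libraries comprise 3 of vesicles from mice that went through a prolonged seizure, called status epilepticus (SE), and 3 of vesicles from matched control mice (CON), with a time of 24 hr in the series title. Strain, age, the agent that gave the seizure and any pooling of animals are not given in the sources used here. Whether each replicate is a separate animal is not stated, so the p-values cover only the spread of these samples, and that spread may be technical. Directions follow the labels SE and CON, and no value here checks them. In bulk vesicle RNA, fewer vesicles from a kind of cell and less of a miRNA per vesicle cannot be told apart.

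Depth ran from 5482407 miRNA reads in CON replicate 2 to 10845434 in SE replicate 1. Values are RPM, reads scaled by the total of miRNA reads in a library. A floor of 3 reads stood at 0.277 to 0.547 RPM, and no library had a value above 0 that stood for fewer than 2 reads. Floors and bounds cover counting error only. The row names of the deposited RPM table went with its SE columns alone, and every CON value below stands under the name to which it was put back through the base means. 6 miRNAs known for brain (miR-9-5p, miR-124-3p, miR-128-3p, miR-138-5p, miR-127-3p and miR-7a-5p) summed to 46681 to 53222 RPM over the libraries, and the red cell markers were miR-451a, at 0 in 5 of 6, and the merged entry of miR-486a-5p and miR-486b-5p, at 16.8 to 32.2 RPM in all 6. The liver miRNA miR-122-5p stood at 89.4 to 114 RPM in SE and 150.2 to 233 RPM in CON libraries, and 3 muscle entries summed to 208 to 222 and 234 to 311 RPM, neither overlapping. Of the muscle entries, miR-1a-3p alone did not overlap, at 147 to 158 RPM in SE and 174 to 217 RPM in CON. miR-206-3p and the merged miR-133a-3p and miR-133b-3p overlapped. Of all tested miRNAs, 13.4% did not overlap and were lower in SE. The part of these markers in the results below was not tested.

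Most miRNAs are cut from long hairpin transcripts by the nuclear enzyme Drosha and then by Dicer, and the arm that stays in an Argonaute protein pairs with messenger RNAs through its seed, bases 2 to 8. Mirtrons skip Drosha: a short intron is spliced out, its lariat is opened, and the intron itself folds into the hairpin that Dicer cuts. In tailed mirtrons only 1 end of the hairpin is set by splicing, and the rest of the intron hangs off the other end. A further class of entries lies inside other small RNAs such as small nucleolar RNAs (snoRNAs), small Cajal body RNAs (scaRNAs) and transfer RNAs (tRNAs), which guide RNA modification or carry amino acids.

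Sequences were found in RefSeq (GRCm38.p6) for 222 of the 250 members, and a hairpin for 208. 4 hairpins are shown because 1 or both of their ends coincide with those of an annotated intron. They read 5′ to 3′ with the mature arms in capitals. Mir1224 lies at chr16:20604452-20604536 (plus strand) and fills an intron of Vwa5b2 of 85 bases. Mir1981 lies at chr1:184822407-184822488 (minus strand) and fills an intron of Marc2 of 82 bases. Mir7080 lies at chr8:123130106-123130172 (plus strand) and fills an intron of Cpne7 of 67 bases. Mir3097 lies at chr5:35021049-35021115 (plus strand), at the 3′ end of an intron of Rgs12 of 709 bases. The first 3 hairpins begin with gu and all 4 end with ag, the bases at the ends of most introns.
Mir1224: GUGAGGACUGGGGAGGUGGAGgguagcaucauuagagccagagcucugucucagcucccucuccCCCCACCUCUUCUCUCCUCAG
Mir1981: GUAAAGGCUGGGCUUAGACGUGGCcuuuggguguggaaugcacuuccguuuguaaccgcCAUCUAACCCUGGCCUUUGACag
Mir7080: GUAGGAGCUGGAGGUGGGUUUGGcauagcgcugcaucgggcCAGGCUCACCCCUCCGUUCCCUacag
Mir3097: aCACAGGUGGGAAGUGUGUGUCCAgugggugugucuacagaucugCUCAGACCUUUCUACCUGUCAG

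The mature miRNAs on which the values below turn are given next, 5′ to 3′, with the seed in capitals. The first 12 lines cover the 10 most abundant members, in order of level, with both names of 2 merged entries. The last 6 are members that differed most between the groups in 1 of the tests.
miR-1983: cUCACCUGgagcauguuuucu
miR-3099-3p: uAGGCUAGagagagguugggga
miR-1839-5p: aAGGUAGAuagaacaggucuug
miR-3473b: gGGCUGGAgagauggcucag
miR-3473e: gGGCUGGAgagauggcucgua
miR-1981-5p: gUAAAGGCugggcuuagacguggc
miR-1224-5p: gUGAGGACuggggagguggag
miR-6538: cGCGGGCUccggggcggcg
miR-1843a-5p: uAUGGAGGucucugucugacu
miR-1843b-5p: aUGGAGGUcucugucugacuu
miR-6240: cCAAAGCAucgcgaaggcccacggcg
miR-1188-5p: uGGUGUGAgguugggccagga
miR-3093-3p: uGUGGACAccgugggagguugg
miR-1198-5p: uAUGUGUUccuggcuggcuugg
miR-1843b-3p: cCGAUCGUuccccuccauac
miR-3097-5p: cACAGGUGggaagugugugucca
miR-3080-5p: uGAAGCGCcuguucuuggau
miR-7004-5p: uUCCGUGGaugaggccugugccgu

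Seeds were nearly all different: the 222 sequences held 218 distinct seeds. 7 seeds, in 10 members, were also the seed of another detected miRNA. miR-1983 has the seed UCACCUG of miR-412-3p, and miR-6240 has the seed CAAAGCA of miR-330-3p. The merged names miR-3473b and miR-3473e share GGCUGGA. The 2 names merged as miR-1843a-5p/1843b-5p hold nearly the same bases shifted by 1 position, so that their seeds differ, AUGGAGG and UGGAGGU. No matched member came within fewer than 7 mismatches of those of the 30 most abundant miRNAs that have a sequence, aligned without gaps over the shorter of the 2 with shifts of up to 2 bases.

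Many of the hairpins lay at the ends of introns. With ends taken as equal within 5 bases of an intron end annotated by GENCODE on the same strand, 12 of the 208 members with a hairpin (5.77%) filled an intron. A further 79 (37.98%) ended at the 3′ splice site of a longer intron, and 3 (1.44%) began at the 5′ splice site. These 94 members (45.2%), from 84 hairpins, compare with 8 of 410 other detected miRNAs (1.95%). Late-annotated entries that were listed at 0 had nearly the same share, 297 of 703 (42.2%). Introns of protein-coding genes were taken first where they held a hairpin, and all 94 lay in such an intron. Of the rest, 64 lay inside an intron, 24 lay wholly within an exon and 26 lay wholly within neither on the same strand. The last class, drawn as no gene on the same strand, can hold hairpins across an exon edge. Genes of small RNAs were not counted.

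**Figure D1:**
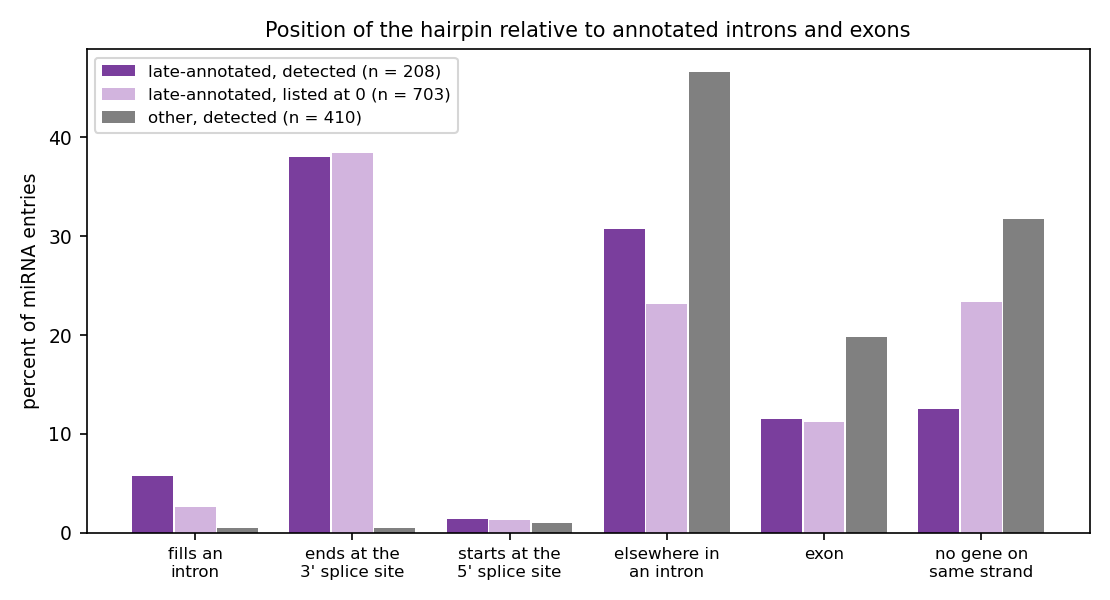
Percent of miRNA entries (vertical axis) in each of 6 positions relative to annotated introns and exons (horizontal axis), for detected late-annotated entries, late-annotated entries listed at 0 and other detected miRNAs. Ends at the 3′ splice site took 37.98% of the detected late-annotated entries with a hairpin.

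Most of these ends met the splice site to the base. Of the 79 members that ended at a 3′ splice site, from 73 hairpins, 70 ended at its exact base, and their introns had a median of 443 bases (77 to 6024). Of the 12 that filled an intron, from 8 hairpins, 11 ended at the exact base, and these introns ran from 67 to 96 bases with a median of 78. The block of numbers that holds entries of a survey of mouse mirtrons gave 88 members, of which 75 had a hairpin. Of these 75, 64 ended at a 3′ splice site, 7 filled an intron, 1 began at a 5′ splice site and 3 lay elsewhere. 22 of the 94 members at a splice site had numbers outside that block, among them both arms of miR-1224 and of miR-1981.

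At splice sites the 5′ arms were rich in G and the 3′ arms poor in it. Their 66 5′ arms had a median of 43.5% G, against 33.3% in the 67 other late-annotated 5′ arms and 27.3% in the 213 5′ arms of other detected miRNAs. Their 28 3′ arms had a median of 14.3% G, against 27.3% in 57 other late-annotated and 22.7% in 220 other 3′ arms. The sets set against them include entries without a known hairpin position, which are not shown to lie away from a splice site. The 3′ arms of the hairpins that filled an intron were 73.9% C plus U at the median (n = 7) and those at a 3′ splice site 71.4% (n = 20), against 54.5% in other miRNAs. miR-1224-5p, at 61.9% G, and miR-7080-5p, at 56.5% G, show this in their printed sequences. The hairpin of miR-1224 ends in a run of C and U before its ag, where introns have their polypyrimidine tract.

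**Figure D2:**
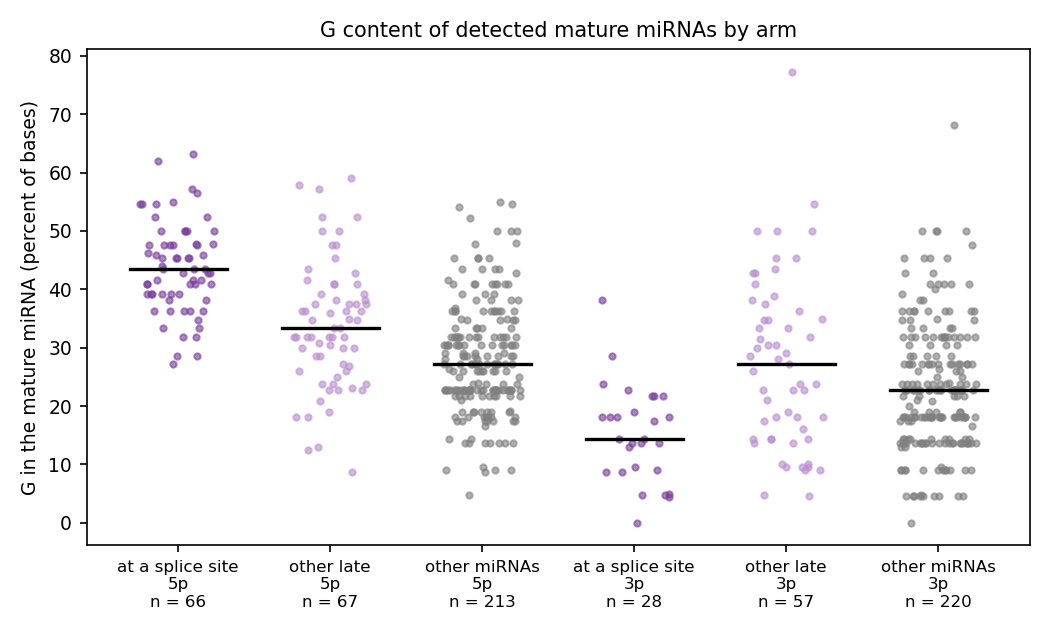
G content of mature sequences in percent of bases (vertical axis) in 6 sets by arm and by position (horizontal axis, n below each), with the median of each set. The medians stand at 43.5% for 5′ arms at a splice site and 14.3% for 3′ arms at a splice site.

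A second kind of member lay inside other small RNAs. The mature sequences of 14 members were found letter for letter in transcripts annotated as snoRNA or scaRNA, which is 6.31% of the 222 with a sequence, against 3 of 433 other detected miRNAs (0.693%: miR-664-3p, miR-664-5p and miR-677-5p). They are miR-1839-5p, miR-1291, miR-3069-5p, miR-3535 and miR-5121, both arms of miR-3068, miR-3084 and miR-6516, and the 3 entries of miR-1843a and miR-1843b. The miR-1843 arms lie in Scarna3a, in an intron of Cop1, and Scarna3b, in an intron of Dcaf5. miR-5121 lies in Snord33, in an intron of the ribosomal protein gene Rpl13a. The mature sequence of miR-6481 occurs in the mitochondrial tRNA gene mt-Tf, although its own RefSeq position is chr3:99199367-99199385 (minus strand). The hairpin of miR-1983 overlaps the tRNA gene n-TItat14 in RefSeq, whose strand was not compared. Reads of such a member cannot be told apart from fragments of the longer RNA. The 14 members summed to 383 RPM ± 49.6 in the SE libraries and 399.6 RPM ± 14.7 in the CON libraries (SD, n = 3).

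All 250 members together took little of the vesicle miRNA. Their summed level was 3425, 2866 and 2724 RPM in the SE libraries and 3154, 3186 and 3100 RPM in the CON libraries. The groups overlapped, with means of 3005 RPM ± 370 (SD, n = 3) and 3147 RPM ± 43.4 (SD, n = 3), or 0.3005% and 0.315% of the miRNA reads. Without miR-1983 the order turned, to 2290 RPM ± 410 in SE and 2098 RPM ± 195 in CON (SD, n = 3). The let-7 family, in comparison, took 796681 and 779112 RPM.

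The members were unequal in level. The median member stood at 0.999 RPM, against 9.51 RPM in the other 525 detected miRNAs. The 5 most abundant members held 61.0% of the members' RPM and the 10 most abundant 74.9%. 5 members had a mean of at least 100 RPM, 94 lay between 1 and 10 RPM, and 125 were below 1 RPM. By number, the 43 members below 2000 summed to 1588 RPM over the 6 libraries, the 62 between 3000 and 4000 to 1003 RPM, and the 88 of the mirtron survey block to 174 RPM. The members at a splice site held 16.2% of the members' RPM. None of the 88 of the mirtron survey block passed 35.7 RPM, the mean of miR-7080-5p.

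**Figure D3:**
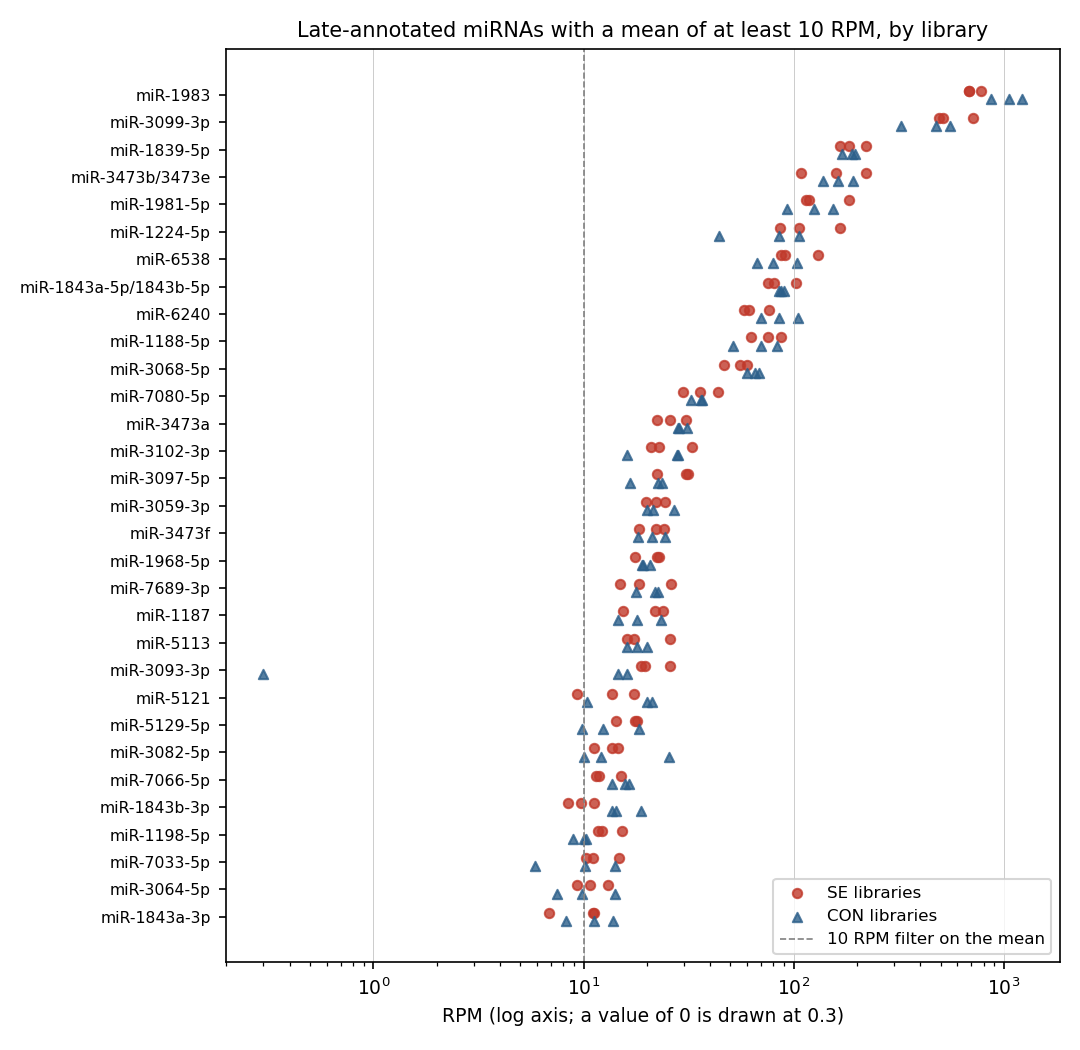
RPM per library (log axis, horizontal; a 0 is drawn at 0.3) of the 31 late-annotated miRNAs that reached a mean of 10 RPM (vertical axis), with circles for the 3 SE and triangles for the 3 CON libraries. The SE circles of miR-1983 lie at 680 to 781 RPM, left of its CON triangles at 871 to 1217 RPM, and the 0 of miR-3093-3p in CON replicate 1 stands apart.

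The comparison of SE with CON asks whether these vesicle miRNAs differ in level after status epilepticus. No late-annotated miRNA passed. limma-trend on log2(RPM + 1) tested the 31 members with a mean of at least 10 RPM, and the other 219 were under that filter. 0 of the 31 had a limma adjusted p under 0.05, against 3 of all 290 tested miRNAs (1.03%). At an unadjusted p under 0.05 there were 4 members, 2 higher and 2 lower in SE, against 9.31% of all tested (1.72% higher and 7.59% lower). The SE and CON libraries did not overlap for 4 of the 31 members, against 14.8% of all tested. 2 of these members were higher in SE, against 1.38% of all tested, and 2 were lower, against 13.4%. The median log2 difference was 0.036 in the members, with 18 above 0 and 13 below, and −0.072 in all 290 tested. Under median-of-ratios scaling, which moved the median of all tested miRNAs by 0.10, 22 members were above 0 and 9 below. The numbers were 19 and 12 after quantile normalization and 18 and 13 with limma-voom on the reads.

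**Figure D4:**
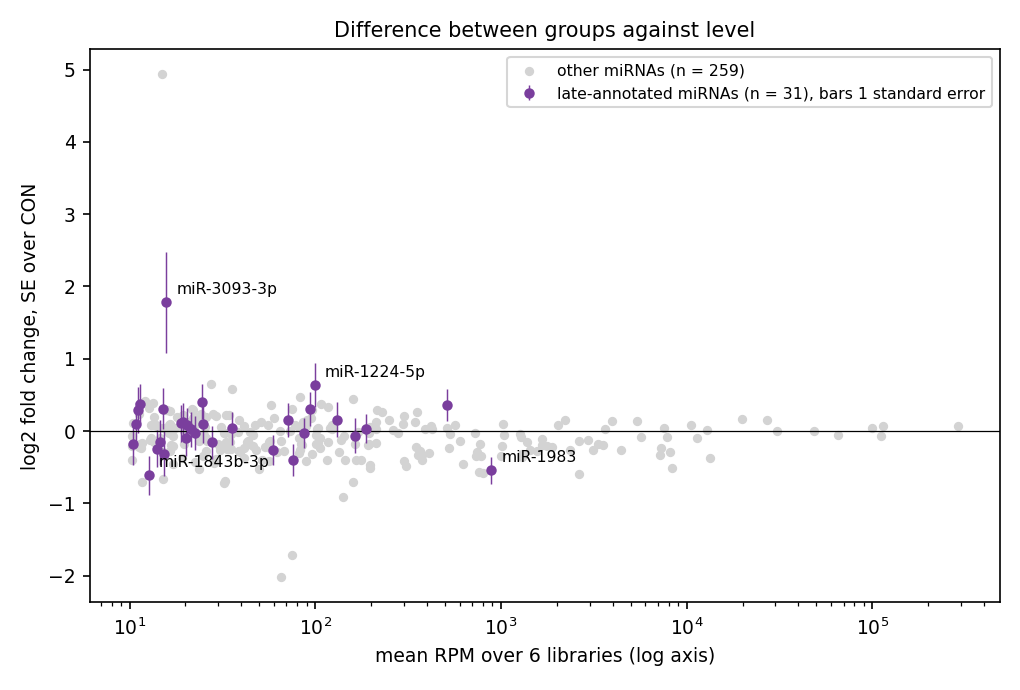
log2 difference of SE over CON (vertical axis) against mean RPM over the 6 libraries (horizontal, log axis) for the 290 tested miRNAs, with the 31 late-annotated ones marked. The late-annotated ones span −0.61 to 1.78, and none passed the adjusted p of 0.05.

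miR-1983, the most abundant member and the one at a tRNA gene, was at 683, 680 and 781 RPM in the SE libraries and at 1217, 871 and 1058 RPM in the CON libraries. Every SE library was below every CON library. The log2 difference was −0.54 (standard error 0.18), with an unadjusted p of 0.00894 and a limma adjusted p of 0.233. Over the alternatives tried it ran from −0.67 to −0.30, with adjusted p from 0.109 to 1.00. The highest came with the CON names as deposited, which do not follow the rows. The next highest limma adjusted p was 0.813, without CON replicate 1. miR-6240 stands with it in the list of entries known to overlap structural RNA, although its sequence matched no such transcript here. It was at 75.9, 61.3 and 57.7 RPM in SE and 84.7, 70.2 and 105 RPM in CON libraries. Its groups overlapped at 1 value, and its log2 difference was −0.40 (standard error 0.22, limma adjusted p = 0.641).

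miR-1839-5p, the member inside a scaRNA at 188 RPM, did not part the groups. It was at 221, 167 and 184 RPM in SE and 170, 196 and 190 RPM in CON libraries. The log2 difference was 0.033 (standard error 0.20, limma adjusted p = 0.966). The 4 detected entries of the list of structural RNA overlap, which are these 3 and miR-1839-3p, summed to 972 RPM ± 57.2 in SE and 1322 RPM ± 170 in CON (SD, n = 3), mostly through miR-1983. Of the other scaRNA and snoRNA members, miR-1843a-5p/1843b-5p was at 103, 80.9 and 75.3 RPM in SE and 84.9, 90.3 and 87.2 RPM in CON libraries. The 3 CON values lay inside the range of the SE values.

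The 3′ arm of miR-1843b was lower in SE without passing. It comes from the chromosome 1 locus alone, whereas the merged 5′ entry also takes in miR-1843a-5p from chromosome 12. miR-1843b-3p stood at 11.2, 8.48 and 9.72 RPM in SE and 13.6, 18.8 and 14.3 RPM in CON libraries. The groups did not overlap, with a log2 difference of −0.61 (standard error 0.27), an unadjusted p of 0.0368 and a limma adjusted p of 0.486. miR-1843a-3p, at a mean of 10.4 RPM just inside the filter, had −0.18 (standard error 0.30). miR-3068-5p, in a snoRNA within Alkbh1, had 59.7, 55.7 and 46.5 RPM in SE and 59.7, 65.3 and 68.7 RPM in CON libraries, with a difference of −0.26 on the log2 scale (standard error 0.21, limma adjusted p = 0.824). Its SE replicate 1 and CON replicate 1 were at nearly the same level. miR-5121, in Snord33, ranged from 9.27 to 17.5 RPM in SE and from 10.4 to 21.2 RPM in CON libraries, with a difference of −0.31 on the log2 scale (standard error 0.31, limma adjusted p = 0.844).

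miR-3099-3p was second in level. Its hairpin lies inside an intron of Usp29, a gene of the imprinted Peg3 domain, and its 3′ arm is 50% G. It was at 715, 488 and 514 RPM in SE and 322, 556 and 475 RPM in CON libraries. The groups overlapped, with SE replicate 1 above and CON replicate 1 below the other 4, and the log2 difference was 0.36 (standard error 0.23, limma adjusted p = 0.660). Without CON replicate 1 it was 0.14 and without SE replicate 1 it was 0.19. miR-6538, inside an intron of Rnf144a, was at 131, 91.2 and 87.3 RPM in SE and 79.7, 104 and 66.7 RPM in CON libraries, a difference of 0.30 (standard error 0.23, limma adjusted p = 0.824). That difference was 0.12 without SE replicate 1, 0.15 without CON replicate 3 and 0.47 without CON replicate 2. miR-1188-5p, inside an intron of Rian in the imprinted Dlk1-Dio3 region, was at 87.4, 75.5 and 62.9 RPM in SE and 69.5, 83.4 and 51.5 RPM in CON libraries. Its groups overlapped over most of their range, with a log2 difference of 0.16 (standard error 0.23).

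The repeat-derived list held 7 detected members, of which 4 were tested and none passed. They summed to 234 RPM ± 66.6 in SE and 237 RPM ± 32.7 in CON (SD, n = 3). The merged entry of miR-3473b and miR-3473e was at 220, 158 and 108 RPM in SE and 138.4, 162 and 191 RPM in CON libraries, with the CON values inside the SE range. The mature sequence of miR-3473a occurred in transcripts of 146 genes and that of miR-3470b in transcripts of 546. Of the sequences searched, they were the only 2 to reach 100 genes. A merged entry was searched by a single sequence. For miR-3473b and miR-3473e this was miR-3473e, so the sequence of miR-3473b was not searched. miR-3473a was at 22.4 to 30.8 RPM in SE and 28.1 to 31.2 RPM in CON libraries, and miR-3473f at 18.4 to 24.3 and 18.2 to 24.3 RPM.

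Members that fill an intron, the layout of a mirtron, summed to 340, 328 and 239 RPM in SE and 274, 289 and 186 RPM in CON libraries, with means of 302 RPM ± 55.3 and 250 RPM ± 56.0 (SD, n = 3). miR-1224-5p, which is also conserved in human, was at 106, 167 and 86.1 RPM in SE and 106, 85.2 and 44.3 RPM in CON libraries. SE replicate 2 was high and CON replicate 3 low, while the other 4 libraries lay between 85.2 and 106 RPM. The log2 difference was 0.64 (standard error 0.30), with an unadjusted p of 0.0478 and a limma adjusted p of 0.528. Without CON replicate 3 it was 0.28 and without SE replicate 2 it was 0.37. miR-1981-5p was at 183, 114 and 119 RPM in SE and 125, 154 and 92.7 RPM in CON libraries, a difference of 0.16 (standard error 0.24, limma adjusted p = 0.887). miR-7080-5p was at 43.5, 35.9 and 29.6 RPM in SE and 32.4, 36.5 and 36.3 RPM in CON libraries, with the CON values inside the SE range.

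Members whose hairpin ends at the 3′ splice site, the layout of a tailed mirtron, summed to 208 RPM ± 19.96 in SE and 204 RPM ± 20.2 in CON (SD, n = 3). miR-3097-5p, from Rgs12, a regulator of G protein signalling, was at 30.8, 31.4 and 22.3 RPM in SE and 16.6, 22.6 and 23.7 RPM in CON libraries. SE replicate 3 lay among the CON values, and the log2 difference was 0.41 (standard error 0.25, limma adjusted p = 0.641). miR-7066-5p, from the last part of an intron of Ncan, which encodes the brain proteoglycan neurocan, was at 15.0, 11.8 and 11.5 RPM in SE and 16.4, 13.7 and 15.7 RPM in CON libraries, a difference of −0.25 (standard error 0.26). miR-7033-5p, from Pom121, a gene of the nuclear pore, ranged from 10.3 to 14.8 RPM in SE and 5.90 to 14.1 RPM in CON libraries. At the filter, miR-3064-5p, from Ddx5, an RNA helicase gene, was just inside with a mean of 10.8 RPM and a log2 difference of 0.10 (standard error 0.30). miR-6769b-5p, from Unc13a, a gene of synaptic vesicle release, was just outside with 9.93 RPM, as was miR-5126 with 8.70 RPM.

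2 members above the filter were higher in every SE library than in every CON library. miR-3093-3p, inside an intron of the noncoding gene Gm3764, was at 25.7, 19.6 and 18.7 RPM in SE and 0, 14.6 and 16.1 RPM in CON libraries. Its log2 difference of 1.78 (standard error 0.70) had an unadjusted p of 0.0211 and a limma adjusted p of 0.385. The 0 in CON replicate 1 sets its size: without that library the difference was 0.44 (limma adjusted p = 0.842), and without CON replicate 3 it was 2.49 and passed (limma adjusted p = 0.00874). The size also moved with the scale, to 1.04 at a pseudocount of 5 RPM, 1.07 after quantile normalization and 2.96 with limma-voom on the reads, and the unadjusted p was 0.234 with robust limma. miR-1198-5p, inside an intron of Gripap1, was at 15.2, 12.3 and 11.7 RPM in SE and 8.94, 10.03 and 10.3 RPM in CON libraries. Its log2 difference was 0.38 (standard error 0.27, limma adjusted p = 0.762).

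Arms were read unequally. Of 34 hairpins with both arms detected under the same base name, the 5′ arm was higher in 26, and in 15 of them in all 6 libraries. The 3′ arm was higher in all 6 libraries in 4 hairpins, miR-3059, miR-3078, miR-3102 and miR-6900. For 3 hairpins that fill an intron, the printed 5′ arms stood at 131 against 2.80 RPM (miR-1981), 99.2 against 1.89 RPM (miR-1224) and 35.7 against 1.21 RPM (miR-7080). miR-3093 went the other way, with 15.8 RPM in its 3′ arm against 1.23 RPM, as did miR-3102 with 24.7 against 0.665 RPM. Further entries of miR-3102 were left out of this pairing: miR-3102-5p.2-5p had a base mean of 25.2 and miR-3102-3p.2-3p of 20.7. The base means of miR-3102-5p and miR-3102-3p were 4.63 and 162. None of these 34 had both arms above the filter. Pairing by name left out the merged entry miR-1843a-5p/1843b-5p. Its mean of 86.9 RPM passed the filter, as did its 3′ arms miR-1843a-3p (10.4 RPM) and miR-1843b-3p (12.7 RPM).

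Detection was patchy. 86 of the 250 members (34.4%) were above 0 in 1 library alone and 66 (26.4%) in all 6, against 7.62% and 74.9% of the other detected miRNAs. The SE libraries held 146, 134 and 129 members above 0 and the CON libraries 131, 130 and 117. With reads drawn at random to the depth of the shallowest library, the expected numbers were 145, 134 and 129 in SE and 131, 130 and 117 in CON. These were nearly the same as before, but they count an entry from 1 read up, whereas no value above 0 stood for fewer than 2 reads. They therefore cannot settle the part of depth. At or above 1 RPM the members numbered 122, 117 and 112 in SE and 116, 121 and 104 in CON, which overlap. Among the 66 members above 0 in all 6 libraries, SE replicate 1 was the highest library for 27 and SE replicate 3 for 0, and SE replicate 3 was the lowest for 26.

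**Figure D5:**
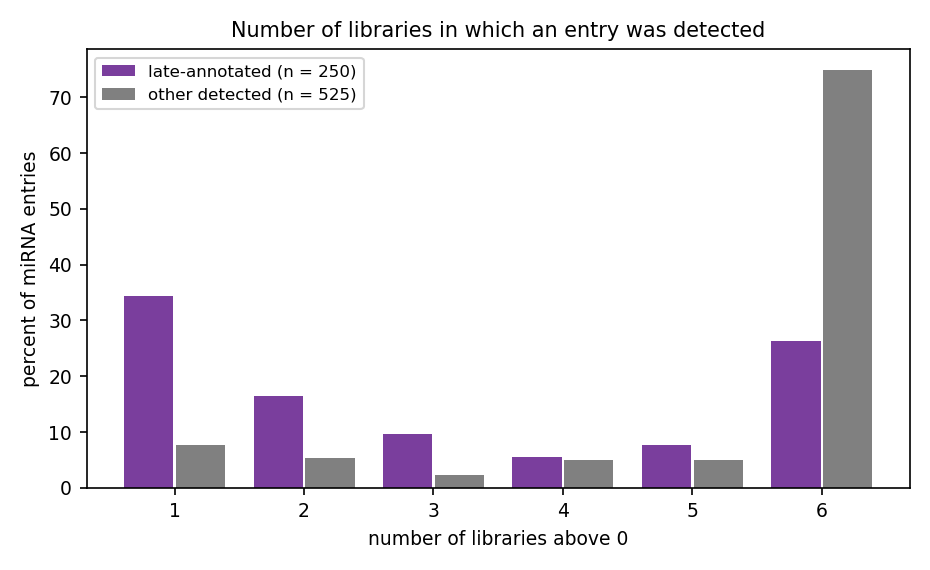
Percent of miRNA entries (vertical axis) by the number of libraries, from 1 to 6, in which they were above 0 (horizontal axis), for the 250 late-annotated and the 525 other detected miRNAs. Late-annotated entries peak at 1 library (34.4%) and again at 6 (26.4%), while 74.9% of the others were in all 6.

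Zeros also stood where other libraries had many reads. An entry was counted if some library stood at 0 although its mean level in the libraries above 0 would have given at least 10 reads there. 125 members (50%) had such a library, against 62 of the 525 others (11.8%). At 1 to 10 RPM, the shares were 56 of 94 members (59.6%) and 32 of 174 others (18.4%). From 10 RPM up, 1 of 31 members, miR-3093-3p, and 1 of 259 others had one. Such zeros were spread over the libraries: 79, 63 and 70 members in SE and 63, 53 and 79 in CON replicates 1, 2 and 3.

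Of the 250 members, 143 were seen in both groups, 61 in SE alone (24.4%, against 11.4% of all detected) and 46 in CON alone (18.4%, against 9.16%). Being seen in 1 group mostly meant being seen in 1 library: 49 of the 61 and 37 of the 46. The median was 13 reads (2 to 78) in SE alone and 17.5 reads (2 to 65) in CON alone. In SE alone, miR-6987-5p had the most, with 78 reads, all in SE replicate 1, and miR-7044-5p had 56, also all in SE replicate 1. miR-5132-5p, in an exon of Irak1, had 55 reads in SE replicates 1 and 2.

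In CON alone, miR-6898-5p, at the 3′ end of an intron of Kansl3, had 65 reads in CON replicates 1 and 2. miR-5617-5p, at the 5′ end of an intron of the synapsin gene Syn1, had 53 reads in replicates 1 and 3. miR-7068-5p, which fills an intron of Cherp, had 49 reads in replicates 2 and 3. None of these 6 was above 0 in all 3 libraries of its group. The 3 entries opposite an older miRNA, miR-3074-5p and miR-3065-5p in SE replicate 3 and miR-3074-1-3p in CON replicate 1, were each in 1 library, with 13, 6 and 2 reads. miR-1249-3p, with a human counterpart, was in all 6 libraries, at 5.16, 8.48 and 5.38 RPM in SE and 3.58, 5.11 and 2.31 RPM in CON. Its 3 SE values were above its 3 CON values. It was under the filter and not tested by limma, and the authors' deposited table gives it an adjusted p of 0.975. The 14 detected members of the list with human counterparts summed to 147 RPM ± 47.6 in SE and 102 RPM ± 33.7 in CON (SD, n = 3), most of it miR-1224-5p.

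The authors' deposited table of fold changes called 2 of the 250 members at an adjusted p under 0.05, against 8 of its 772 miRNAs with a p-value (1.04%). Both were seen in all 3 libraries of 1 group and in none of the other, and the rule that chose the members used the base mean of the same table. miR-3080-5p, inside an intron of Tcf20, was at 0 in all SE libraries. In the CON libraries it was at 3.04, 2.55 and 1.08 RPM (17, 14 and 7 reads). Its pooled CON reads, 2.16 RPM, were 17.0-fold above a floor of 3 reads in the pooled SE reads (0.127 RPM). The authors' deposited table gives it 6.41 (standard error 1.76) on the log2 scale, with an adjusted p of 0.0357. The table does not state its direction, which was read from the values: entries seen in the SE columns alone have negative ones there. miR-7004-5p was at 1.84, 2.16 and 1.49 RPM (20, 13 and 10 reads) in the SE libraries and at 0 in all CON libraries. Its pooled SE reads, 1.83 RPM, were 10.7-fold above a floor of 3 reads in the pooled CON reads (0.171 RPM). The authors' deposited table gives it −5.96 (standard error 1.69) with an adjusted p of 0.0400. Both folds cover counting error only, and zeros of members also stood where other libraries had many reads. These calls rest on 38 and 43 reads, and none of the 34 members with a base mean of at least 50 was called there. In the authors' deposited table miR-1983 has 0.43 with an adjusted p of 0.569.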

How the data were processed

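Per the labels' protocols, the QIAseq miRNA kit was used on column-extracted RNA. Per the submitters' processing notes, DESeq2 was used, in a role and version not stated, and the genome build was mm9. The aligner, the counter and the miRNA annotation are not given in the sources used here. The authors' deposited RPM values are reads scaled to a fixed total per library, and all were whole multiples of 1 read within 0.01 once the lowest stood for 2. Per the file headers, the authors' deposited table of fold changes gives a base mean of normalized counts, log2 fold changes with standard errors, p-values (raw and adjusted) and a Wald score. These were taken over without refitting.

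CON rows were put back under their names: the second-group total that each base mean leaves after the normalized SE reads matched a CON row for 687 of 687 miRNAs where it was above 0 (tolerance 1e-05, largest relative difference 1.79e-09), and 88 were at 0. For 90 several rows with identical reads matched.

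Groups were compared on log2(RPM + 1) by limma-trend (R 4.3.3, limma 3.58.1), two-sided, with a mean of at least 10 RPM and Benjamini-Hochberg adjustment over 290 miRNAs. It was tested on simulated data. Tables used Python 3.11.15, numpy 2.4.6, pandas 2.3.3 and matplotlib 3.10.9. Sequences and positions come from RefSeq on GRCm38.p6, with introns and transcripts from GENCODE M21 on the same assembly, and were matched by name, not converted from mm9. 28 members were without a RefSeq match. The members, lists and tests were chosen with earlier results of these data known. Members named are the 10 most abundant, the 6 tested with the smallest p in each direction, the calls, 3 with most reads in each single group, 2 on each side of the filter, and up to 3 of each list. The other members named with values were chosen after their values were seen. The alternatives tried were filters of 2 and 50 RPM or none, pseudocounts of 0.5 and 5 RPM, median-of-ratios and quantile scaling, no trend, robust limma, limma-voom on the reads, the replicate number as a block, CON names as deposited and each library left out.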

Additional observations from a re-analysis of the deposited data

How the results depend on the processing

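All miRNAs called numbered 3, 0 with names as deposited for the CON rows, and 3 to 6 with a library left out (6 without CON replicate 2 and 5 without CON replicate 3). No member passed under the alternatives with all 6 libraries. With a library left out the count was 0 to 1, the 1 being miR-3093-3p without CON replicate 3. Members at an unadjusted p under 0.05 numbered 4 as reported, 15 without a filter (7 higher and 8 lower), 1 with a filter of 50 RPM, 1 after quantile normalization, 2 with limma without trend (0 higher and 2 lower), 0 with names as deposited and 1 to 3 with a library left out. Median-of-ratios scaling gave 4, of which 3 were higher and 1 lower. The replicate numbers did not pair the samples: deviations of same-numbered libraries correlated at −0.42, −0.25 and 0.04. With the replicate block, 3 miRNAs and 0 members were called and 3 members had an unadjusted p under 0.05.

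The difference in summed RPM, −142 as reported, was 192 without miR-1983, 477 when the let-7 family was taken out of the total and 62.3 with median-of-ratios scaling. The 477 is on a larger scale, as let-7 held 79.7% of the SE and 77.9% of the CON reads. Its size cannot be set beside the others. With a library left out it ran from −352 (without SE replicate 1) to −1.84 (without SE replicate 3). Members seen in a single group fell from 107 to 21 when at least 2 libraries were asked for. The authors' 2 calls fell to 0 at a base mean of at least 50.

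Of 399 log2 differences of the 23 named members tested, over 18 alternatives, 33 changed sign. With names as deposited these were miR-3099-3p (−0.16), miR-1839-5p (−0.081), miR-1981-5p (−0.26), miR-1224-5p (−0.025), miR-6538 (−0.068), miR-1188-5p (−0.078), miR-3097-5p (−0.16), miR-1198-5p (−0.0090), miR-7080-5p (−0.24), miR-5121 (0.023) and miR-7066-5p (0.035). With median-of-ratios scaling they were miR-3473b with miR-3473e (0.041) and miR-1843a-5p/1843b-5p (0.071), and after quantile normalization the same names (0.044 and 0.034) and miR-3473f (−0.037). With a library left out, the ranges that crossed 0 were −0.078 to 0.12 for miR-1839-5p, −0.31 to 0.20 for miR-3473b with miR-3473e, −0.060 to 0.33 for miR-1981-5p, −0.16 to 0.059 for miR-1843a-5p/1843b-5p, −0.029 to 0.31 for miR-1188-5p, −0.36 to 0.032 for miR-1843a-3p, −0.098 to 0.32 for miR-3064-5p, −0.099 to 0.17 for miR-7080-5p, −0.011 to 0.56 for miR-7033-5p and −0.072 to 0.13 for miR-3473f. Without changing sign, miR-6240 moved to −0.25 without CON replicate 3, miR-3097-5p to 0.26 without CON replicate 1 and miR-3068-5p to −0.16 without SE replicate 3. miR-5121 ran from −0.62 (without CON replicate 2) to −0.087 (without SE replicate 3). The cause was not tested. The 219 members under the filter were not tested, and 125 members were below 1 RPM.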

Other observations

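The 31 tested members varied between replicates about as much as other tested miRNAs: the median coefficient of variation was 17.6% in SE and 18.1% in CON libraries, against 15.1% and 17.2%. At 10 to 30 RPM the medians were 17.6% and 18.1% in 19 members and 19.4% and 21.2% in 73 others.

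Among members under the filter, miR-6934-5p was at 12.5, 7.65 and 7.03 RPM in SE and 9.65, 8.76 and 0 RPM in CON libraries, where the 0 is in CON replicate 3. miR-6986-5p was at 6.82, 6.98 and 7.03 RPM in SE and 7.51, 6.202 and 7.53 RPM in CON libraries. miR-3084-5p, in a snoRNA, ranged from 6.73 to 9.96 RPM in SE and 5.29 to 9.83 RPM in CON libraries.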
